A study of Mus musculus with 12 samples.

Results

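The gasdermin family of mouse back skin was followed across normal skin, imiquimod (IMQ) lesions and IMQ lesions treated with the Banzhilian formula (BZLF). Its members were taken by their gene symbols, namely Gsdma, Gsdma2, Gsdma3, Gsdmc, Gsdmc2, Gsdmc3, Gsdmc4 and Gsdmd, and all 8 had a row among the 18505 genes of the deposited table. RNA was sequenced from 12 samples of the shaved back skin of wild-type male BALB/c mice, which were 5 to 6 weeks old and were sampled on day 10, with 4 samples in each group. Whether each sample came from a separate mouse is not stated, so that p-values measure the spread between these samples, which may be technical. Control mice had petroleum jelly on the shaved skin. The IMQ + NS group received IMQ cream, a Toll-like receptor agonist that induces psoriasis-like dermatitis, for 6 h and was then covered with saline, gauze and film. The IMQ + BZLF group received the same cream and was then covered with BZLF, a mixture of traditional Chinese medicinal materials used against psoriasis, whose dose in the sequenced samples is not stated. The gauze and film are described for the IMQ groups and not for the control group, so petroleum jelly, cover and IMQ cannot be told apart in a comparison with normal skin.

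Gasdermins are pore-forming proteins. An amino-terminal domain is held inactive by a carboxy-terminal domain until a protease cuts the linker between them, after which the freed part inserts into the membrane, releases mature Il1b and can kill the cell by pyroptosis. Gsdmd is the substrate of the inflammatory caspases Casp1 and Casp4 and is widely expressed in myeloid and epithelial cells. The Gsdma genes are expressed in epidermis and hair follicle, and mutations of Gsdma3 cause hair loss in mice. The Gsdmc genes are best known from intestinal epithelium and tumors.

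The 8 genes lie at 3 places of the mm10 genome, with positions from GENCODE M21. Gsdma3 (chr11:98626360-98638226), Gsdma2 (chr11:98646759-98657964) and Gsdma (chr11:98664351-98677708) follow each other on the plus strand. Gsdmc (chr15:63775968-63808759), Gsdmc2 (chr15:63824346-63845177), Gsdmc3 (chr15:63857724-63878558) and Gsdmc4 (chr15:63891264-63912297) follow each other on the minus strand of another chromosome. Gsdmd (chr15:75862327-75867408, plus strand) stands by itself further along that chromosome. The coding sequences of Gsdmc2, Gsdmc3 and Gsdmc4 are nearly copies of one another, which matters because the values below depend on how reads were divided among them. The first 90 coding bases of the Gsdmc genes are shown from the GENCODE transcripts, 5′ to 3′, with capitals where a gene differs from Gsdmc, the most abundant of the 4.

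Gsdmc: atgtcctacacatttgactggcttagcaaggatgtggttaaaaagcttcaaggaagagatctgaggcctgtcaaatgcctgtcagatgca
Gsdmc2: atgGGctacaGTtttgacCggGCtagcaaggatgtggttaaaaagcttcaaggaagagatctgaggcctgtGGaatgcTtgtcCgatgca
Gsdmc3: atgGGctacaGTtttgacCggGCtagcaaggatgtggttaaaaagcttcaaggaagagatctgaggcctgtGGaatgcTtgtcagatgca
Gsdmc4: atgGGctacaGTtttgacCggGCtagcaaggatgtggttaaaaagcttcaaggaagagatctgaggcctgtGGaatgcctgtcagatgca

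Gsdmc2, Gsdmc3 and Gsdmc4 differ from Gsdmc at 11, 10 and 9 of these bases, and mostly at the same ones. Over the whole coding sequence Gsdmc2 and Gsdmc3 were 97.2% identical, whereas Gsdmc was 83.5% to 84.6% identical to the other 3. Of the 50-base words in the Gsdmc2 coding sequence, 38.9% occurred unchanged in Gsdmc3 and 38.2% in Gsdmc4, but 10.7% in Gsdmc. The Gsdma genes were alike in the same way, as their first 90 coding bases show with capitals where a gene differs from Gsdma.

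Gsdma: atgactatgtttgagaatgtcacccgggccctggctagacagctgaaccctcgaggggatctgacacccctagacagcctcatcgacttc
Gsdma2: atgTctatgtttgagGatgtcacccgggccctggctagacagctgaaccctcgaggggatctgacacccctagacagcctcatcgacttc
Gsdma3: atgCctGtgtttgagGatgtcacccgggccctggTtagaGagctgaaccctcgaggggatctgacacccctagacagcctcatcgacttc

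Gsdma was 90.1% identical to Gsdma2 and 86.2% to Gsdma3, and 12% of its 50-base words occurred in Gsdma2 and 5.12% in Gsdma3. Gsdmd shared no 50-base word with any other member, and its identity to them was 55.2% to 57.9%. The levels of Gsdmd therefore do not rest on reads shared within the family, while those of the weak members Gsdma2, Gsdmc2, Gsdmc3 and Gsdmc4 are uncertain.

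Levels are given as FPKM, fragments normalized to transcript length and library size, so that genes can be compared per length. The values of a sample added up to 444660 to 506622 FPKM, lowest in the control group. Genes with a mean of at least 0.1 FPKM over the 12 samples, 15288 in all, were tested with limma on log2(FPKM + 0.1), and fold changes are on that scale, which understates the change of low genes. A call required that the Benjamini-Hochberg adjusted p was below 0.05 and that the log2 fold change exceeded 1 in either direction. Of the 8 members, 6 were tested. Gsdmc4, with a mean of 0.0975 FPKM, fell just short of the limit, and Gsdmc3 had 0.00531 FPKM, while Gsdma2 (0.271) and Gsdmc2 (0.283) were the lowest members that passed.

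The samples carried the RNA of keratinocytes throughout, with none of 10 suprabasal markers at 0 throughout a group and a summed level of 1548 to 4944 FPKM. Of these 10 markers 5 were called higher and 3 lower in IMQ + NS lesions than in normal skin. Control replicate 2 stood apart from the other controls in hair follicle genes. Its 7 inner root sheath keratin and trichohyalin genes added up to 1959 FPKM, against 19.3 to 57.5 in the other controls, 8180 to 10397 in IMQ + NS samples and 10100 to 14267 after BZLF. In bulk skin, fewer cells of a type and less RNA per cell cannot be told apart.

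**Figure D1:**
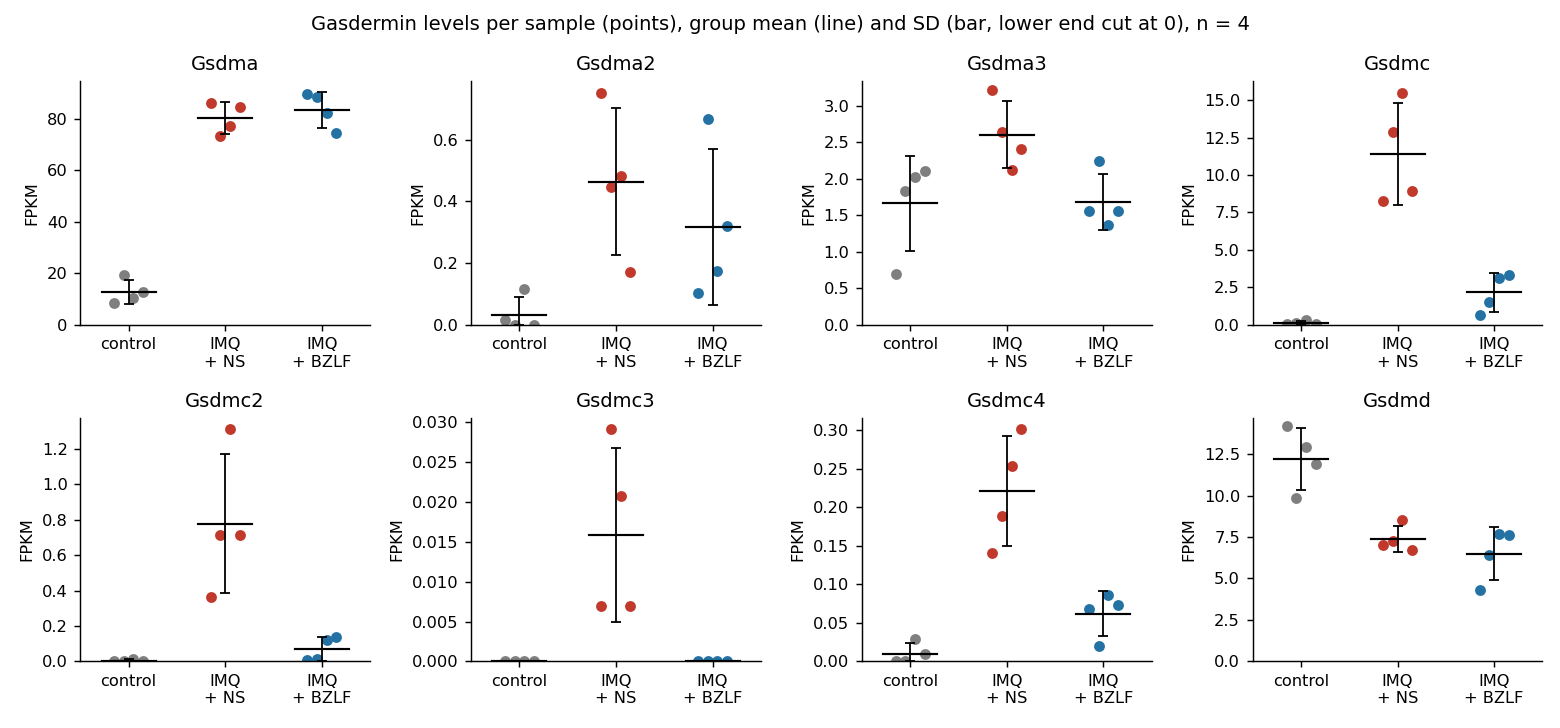
FPKM of each of the 8 gasdermins (vertical axes, linear and scaled per gene) in the 3 groups (horizontal axes), with 1 point per sample, the group mean as a line and the SD as a bar whose lower end stops at 0. Gsdma is high in both IMQ groups, the 4 Gsdmc genes are high in the IMQ + NS group, and Gsdmd is highest in the control group.

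The family as a whole differed between the groups in amount and in make-up. The 8 members together had 26.8 ± 3.15 FPKM (SD, n = 4) in normal skin, 103 ± 3.94 in lesions under saline and 94.4 ± 5.03 in lesions under BZLF. In normal skin Gsdma and Gsdmd were about equal, with a mean share of 46.6% each. In IMQ + NS lesions Gsdma made up 73.3% to 81.5% of the family, Gsdmc 7.80% to 14.7% and Gsdmd 6.47% to 8.09%. In IMQ + BZLF lesions Gsdma took 85.1% to 93.1% and Gsdmc 0.651% to 3.81%. These shares are descriptions and were not tested.

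**Figure D2:**
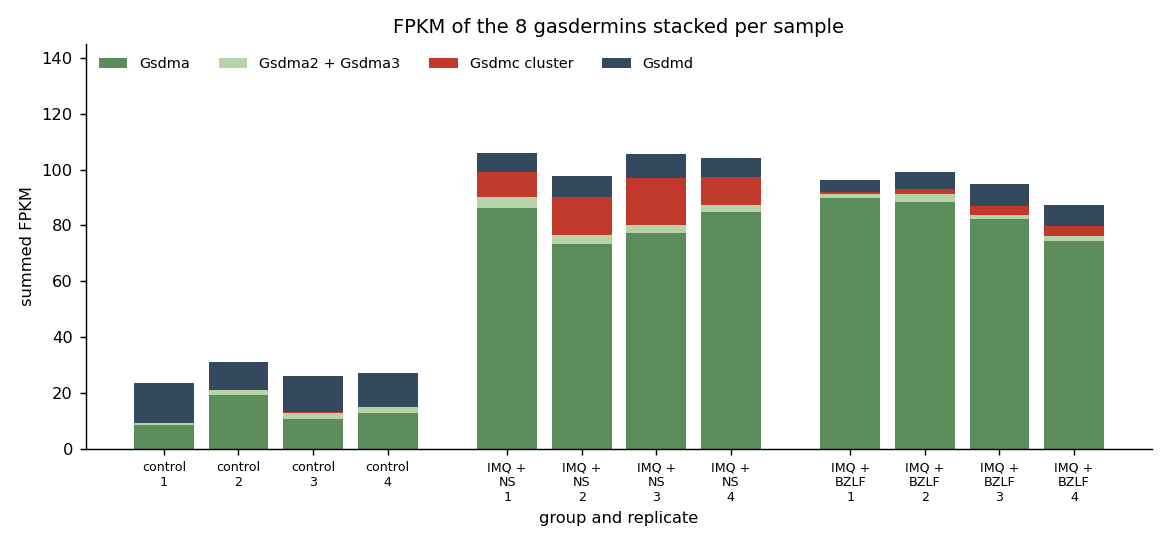
Summed FPKM of the gasdermins (vertical axis) in each of the 12 samples (horizontal axis, by group and replicate), stacked into Gsdma, Gsdma2 with Gsdma3, the 4 Gsdmc genes and Gsdmd. The bars of the IMQ groups are mostly Gsdma, and the Gsdmc part is widest in the IMQ + NS group.

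Normal skin was first compared with the IMQ + NS lesions. Of the 6 tested members, 4 were higher in the lesion (Gsdma, Gsdma2, Gsdmc and Gsdmc2) and 0 were lower by the call, while 22.4% of all tested genes were called, 11.4% higher and 11.0% lower. By limma at an unadjusted p below 0.05, a limit at which all genes were not counted, 4 members were higher and 1, Gsdmd, was lower. The median log2 fold change of the 6 was 2.38, against 0.05 for all genes tested. In all 8 members the 4 lesion samples did not overlap the 4 control samples, 7 of them higher and Gsdmd lower. Gsdmc2 passed the filter on low values through the IMQ + NS group alone, and Gsdma2 through the IMQ groups, so both had to differ from normal skin, and the counts and the median over tested members describe them without supporting a change of the family. Of all genes in the table, 42.4% did not overlap, 20.2% being higher and 22.2% lower.

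Gsdma, a gasdermin of epidermis and hair follicle, had 8.45, 19.2, 10.5 and 12.9 FPKM in the 4 control samples and 86.2, 73.3, 77.4 and 84.7 in the IMQ + NS samples. Every lesion was far above every control, and the highest control was replicate 2, the sample with the high inner root sheath genes. The mean was 6.30 times that of the control group, and the log2 fold change was 2.71 (standard error 0.22, adjusted p = 2.7e-05 from limma). Without control replicate 2 it was 2.93. All 7 inner root sheath genes and all 9 hair shaft keratins were called higher in the same comparison. The hair shaft keratins summed to 13.3 to 298.7 FPKM in normal skin, 6117 to 9006 in IMQ + NS lesions and 8251 to 12680 after BZLF. The 8 sebaceous gland genes moved the other way, with 5 called lower and a sum of 941.7 to 1291 FPKM in control and 363.4 to 642.5 FPKM in IMQ + NS samples. The part of these structures in the rise of Gsdma was not tested.

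Gsdma3, the paralog behind inherited hair loss, had 0.694, 1.83, 2.02 and 2.10 FPKM in control and 3.21, 2.64, 2.12 and 2.41 FPKM in IMQ + NS samples. The groups did not overlap, but the lowest lesion was only just above the highest control. The log2 fold change of 0.71 had a 95% interval from -0.02 to 1.44 and an adjusted p of 0.0899 in limma, so it was not called. Gsdma3 stood at 8.21% to 19.2% of the level of Gsdma in control samples and at 2.75% to 3.72% in IMQ + NS samples. Gsdma2 was listed at 0 in 2 controls and at 0.0143 and 0.117 FPKM in the others, against 0.753, 0.448, 0.483 and 0.171 in the lesions. Its log2 fold change was 2.05 (adjusted p = 0.00243 from limma), and with 1 added before the logarithm in place of 0.1 it was 0.49 and no longer a call.

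Among the tested members Gsdmc had the largest change on the log2(FPKM + 0.1) scale, while Gsdma differed most in FPKM (67.6 against 11.3 for Gsdmc). The level of Gsdmc was 0.0315, 0.115, 0.301 and 0.0324 FPKM in control samples and 8.27, 12.9, 15.5 and 8.95 FPKM in IMQ + NS samples. The gene was close to 0 in normal skin and reached the level of Gsdmd in every lesion. The ratio of the means was 95.2, and the log2 fold change was 5.82 (standard error 0.38, adjusted p = 8.0e-06 from limma), which placed Gsdmc 181st from the top among the 15288 genes tested.

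The other Gsdmc genes were higher in the lesions at far lower levels. Gsdmc2 was listed at 0 in 3 controls and at 0.0158 FPKM in replicate 3, and had 0.365, 0.713, 1.31 and 0.716 FPKM in the lesions. Its log2 fold change was 2.97 (adjusted p = 1.1e-04 from limma), or 0.80 and no longer a call with 1 added. Gsdmc4 had at most 0.029 FPKM in control samples and 0.141 to 0.301 in the lesions. Gsdmc3 was listed at 0 in all 4 controls and had 0.00693 to 0.0291 FPKM in the lesions. Gsdmc3 and Gsdmc4 were outside the fit, and for each an exact permutation test (two-sided) gave p = 0.0286, the smallest that 4 samples against 4 allow. Since reads may have been shared, these p-values are not evidence apart from Gsdmc and Gsdmc2, and the 4 genes were also added up. The sum was 0.0315 to 0.345 FPKM in control and 8.78 to 17.1 in IMQ + NS samples, and Gsdmc itself carried most of it.

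Gsdmd, the executor gasdermin of the inflammasome, was the member that was lower in lesions. It had 14.2, 9.84, 12.9 and 11.9 FPKM in control samples and 7.01, 7.29, 8.54 and 6.73 FPKM in IMQ + NS samples, without overlap. The log2 fold change was -0.71 (95% interval -1.01 to -0.41, adjusted p = 0.00186 from limma). The adjusted p passed and the fold limit did not. Of all genes tested, 27.1% were lower with such an adjusted p at any fold. The 9 macrophage genes summed to 1823 to 2599 FPKM in normal skin, 1146 to 1731 in IMQ + NS lesions and 763.9 to 1197 after BZLF, with 1 of 9 called lower in the lesions. At an adjusted p below 0.05 in limma and any fold, as Gsdmd passed, 8 of the 9 were lower in IMQ + NS lesions and 1, Adgre1, was higher. Their part in the level of Gsdmd was not tested.

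**Figure D3:**
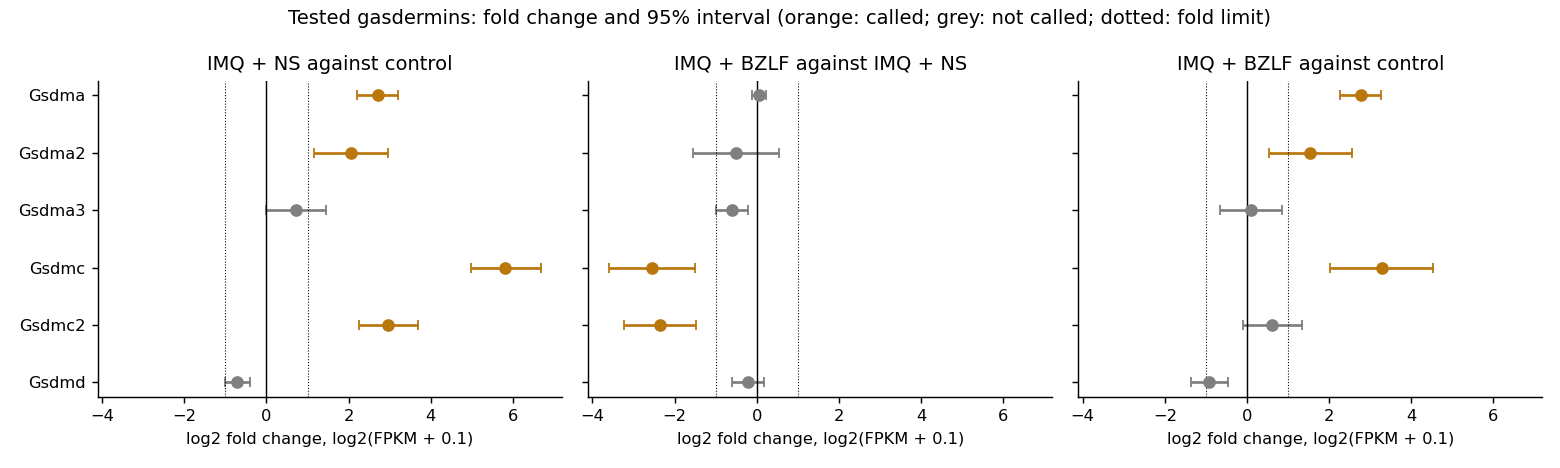
Log2 fold change on log2(FPKM + 0.1) (horizontal axes) of the 6 tested gasdermins (rows) in the 3 comparisons, with 95% intervals from limma, orange where called and grey where not. Gsdmc and Gsdmc2 are the members called lower after BZLF, while the interval of Gsdma there runs from -0.12 to 0.23.

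The IMQ + BZLF lesions were then compared with the IMQ + NS lesions, a comparison that addresses what BZLF changed in the lesion. Of the 6 tested members 2, Gsdmc and Gsdmc2, were lower by the call and 0 were higher. At an unadjusted p below 0.05 in limma 3 were lower, Gsdma3 being the added one, and 0 were higher. All genes were not counted at that limit, so this count has no share beside it. Gsdmc2 was tested only because of its level in the IMQ + NS group, so its lower level elsewhere came with the filter. Among all tested genes 2.52% were called, 2.2% lower and 0.321% higher. The median log2 fold change of the 6 was -0.56, against -0.02 for all genes tested. The 4 members whose groups did not overlap were Gsdmc, Gsdmc2, Gsdmc3 and Gsdmc4, all lower after BZLF, and 13.1% of all genes did not overlap, 9.32% being lower and 3.78% higher. Reads may have been shared among the 4 Gsdmc genes, so they do not count as separate observations. This comparison shares its IMQ + NS samples with the one before.

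Gsdmc had 0.627, 1.53, 3.15 and 3.33 FPKM in the IMQ + BZLF samples, so that the highest of them was below the lowest IMQ + NS sample at 8.27. Replicates 3 and 4 were several times above replicate 1, and the mean of 2.16 ± 1.30 FPKM (SD, n = 4) compared with 11.4 ± 3.42 in the IMQ + NS group. The log2 fold change was -2.55 (standard error 0.46, 95% interval -3.59 to -1.50, adjusted p = 0.0145 from limma). The call was lost without IMQ + BZLF replicate 2 (-2.47, adjusted p = 0.0537).

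Gsdmc2 followed with 0.00532, 0.0161, 0.12 and 0.136 FPKM after BZLF, again lowest in replicate 1. Its mean was 0.776 ± 0.392 FPKM (SD, n = 4) in IMQ + NS lesions and 0.0695 ± 0.0683 after BZLF, and its log2 fold change was -2.35 (adjusted p = 0.0107 from limma), or -0.71 and no call with 1 added. Gsdmc4 had 0.0197 to 0.0862 FPKM, below every IMQ + NS sample, and Gsdmc3 was listed at 0 in all 4 samples (exact permutation test, two-sided, p = 0.0286 each). With reads possibly shared, these p-values are again not evidence apart from Gsdmc and Gsdmc2. Added up, the 4 Gsdmc genes had 12.4 ± 3.80 FPKM (SD, n = 4) in IMQ + NS lesions and 2.29 ± 1.38 after BZLF.

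Some genes of other cell types and states moved with the Gsdmc genes. The 10 neutrophil genes were all called higher in IMQ + NS than in control samples, and 9 were lower after BZLF. Their sum was 34.5 to 52.8 FPKM in normal skin, 3148 to 9923 in IMQ + NS lesions and 69.5 to 91.9 after BZLF. S100a8 (14.7, 3009.9 and 45.8 FPKM on average) and S100a9 (15.6, 2909.2 and 20.6) carried most of it. Each other gene averaged at most 14.8 FPKM in any group. Camp, the gene not called lower after BZLF, averaged 1.33, 9.99 and 7.53 FPKM. Ly6g averaged 0.0135 FPKM in control samples and was tested only through its level in the IMQ + NS group, so its calls came with the filter. The 6 genes of hyperproliferative keratinocytes were all called higher in IMQ + NS lesions and 3 were lower after BZLF, with sums of 199.3 to 676.7 FPKM in normal skin, 2392 to 4262 in IMQ + NS lesions and 1184 to 1434 after BZLF. The 3 were Krt6a, Krt6b and Krt16. Krt17 (-0.44) and the proliferation genes Mki67 (-0.11, adjusted p = 0.422 from limma) and Top2a (-0.15, adjusted p = 0.288) were not called after BZLF. Between normal skin and IMQ + NS lesions, 4 of the 6 did not overlap. Mki67 reached 23.7 FPKM in control against 21.4 to 24.7 in IMQ + NS samples, and Top2a reached 37.4 against 26.3 to 30.2. The highest control sum of the list, 676.7 FPKM, was that of control replicate 2. The 8 intestinal epithelium genes with a value were looked at because Gsdmc2, Gsdmc3 and Gsdmc4 are known from that tissue. They summed to 4.83 to 6.76 FPKM in normal skin, 1.42 to 2.98 in IMQ + NS lesions and 2.66 to 5.22 after BZLF. Lgals4, Krt20 and Guca2a, at 1.96, 1.83 and 1.90 FPKM in normal skin, carried most of the sum. Cdx1 was close to 0 in every group, with means of 0.00358 FPKM in control and 0.00372 FPKM in IMQ + BZLF samples. It was listed at 0 in every IMQ + NS sample. The intestinal sum was below the control range in every IMQ + NS sample. The part of neutrophils and hyperproliferative keratinocytes in the levels of the Gsdmc genes was not tested.

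Gsdma did not follow this pattern. It had 89.7, 88.4, 82.1 and 74.4 FPKM after BZLF, of which the last 2 lay within the IMQ + NS range of 73.3 to 86.2 and the first 2 just above it. The log2 fold change was 0.06 with a 95% interval from -0.12 to 0.23 (adjusted p = 0.711 from limma), so a change beyond 1.17 times higher or 0.921 times the IMQ + NS level lay outside the interval. The inner root sheath and hair shaft genes had 0 of 7 and 0 of 9 calls by limma in this comparison, with median log2 fold changes of 0.33 and 0.34. At an unadjusted p below 0.05 in limma, where all genes were not counted, 3 and 0 of them were higher.

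Gsdma3 had 1.55, 2.24, 1.37 and 1.55 FPKM after BZLF, and replicate 2 alone reached into the range of the IMQ + NS group. Its log2 fold change of -0.61 (95% interval -1.0 to -0.22) had an adjusted p of 0.0698 in limma and was not called. Gsdma2, at 0.103 to 0.669 FPKM, overlapped the IMQ + NS samples, and its interval from -1.55 to 0.53 leaves changes of either direction possible. Gsdmd had 4.31, 6.39, 7.68 and 7.61 FPKM after BZLF. Replicate 1 was the lowest and the others lay within or just below the IMQ + NS range, with a log2 fold change of -0.21 (95% interval -0.61 to 0.18, adjusted p = 0.517 from limma).

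The IMQ + BZLF lesions were last compared with normal skin, with the control samples of the opening comparison. Of the 6 tested members 3 (Gsdma, Gsdma2 and Gsdmc) were higher and 0 lower by the call. At an unadjusted p below 0.05 in limma, a limit at which all genes were not counted, 3 were higher and 1, Gsdmd, was lower. Among all tested genes 19.7% were called, 9.65% higher and 10.1% lower. The median log2 fold change was 1.08, against -0.02 for all genes tested. Gsdma2 passed the filter on low values only through the IMQ groups, and Gsdmc2 only through the IMQ + NS group. The rise of Gsdma2 over normal skin therefore came with the filter, and the count and the median do not support a change of the family. Gsdma and Gsdmc were higher and Gsdmd lower without overlap, and 40.5% of all genes did not overlap, 16.6% being higher and 23.9% lower. Gsdma was 6.55 times the control level (log2 fold change 2.77, adjusted p = 3.9e-05 from limma). Gsdmc was still 18.0 times the control level, with a log2 fold change of 3.28 (95% interval 2.02 to 4.53, adjusted p = 0.00149 from limma). Gsdmc2 was not called (0.61, adjusted p = 0.132), and Gsdma3 had 1.66 ± 0.654 FPKM in control and 1.68 ± 0.382 in IMQ + BZLF samples (SD, n = 4). Gsdma2 overlapped between the groups, and its log2 fold change of 1.54 (limma, adjusted p = 0.0177) was 0.33 and no call with 1 added. Gsdmd was lower without overlap, at -0.92 on the log2 scale (adjusted p = 0.00461 from limma), under the fold limit, and 29.2% of all genes tested were lower with such an adjusted p at any fold. It was past the limit, at -1.01 or -1.02, without control replicate 2, without IMQ + BZLF replicate 3 or 4, and with quantile normalization.

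Ordered by mean level, the members stood as Gsdma, Gsdmd, Gsdma3 and Gsdmc in normal skin. Gsdma and Gsdmd overlapped there, while Gsdma3 was below both in every sample. In IMQ + NS lesions Gsdmc (11.4 FPKM) moved ahead of Gsdmd (7.39 FPKM), and it was above Gsdmd within each sample. Across samples the ranges met, as the lowest Gsdmc sample at 8.27 lay below the highest Gsdmd sample at 8.54. In IMQ + BZLF lesions the order was Gsdma, Gsdmd, Gsdmc and Gsdma3, and Gsdmc and Gsdma3 overlapped. Gsdma2, Gsdmc2, Gsdmc4 and Gsdmc3 were each below 1 FPKM on average in all 3 groups.

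The genes with the most similar profile were found for each tested member by the root mean square difference of log2(FPKM + 0.1), centered on each gene, over the 12 samples and among genes with a mean of at least 1 FPKM. The samples share the contrast of the 3 groups, so likeness mostly reflects group levels. Gsdma was nearest to AI661453 and Proser2, each at 0.11, with 8.28 FPKM for AI661453 in normal skin, 56.5 in IMQ + NS lesions and 61.0 after BZLF. Gsdmd was nearest to Lgals9, which encodes galectin-9, at 0.07, and to Lsp1, a leukocyte protein of the actin skeleton, at 0.09. Lgals9 had 48.4, 28.4 and 25.9 FPKM in the 3 groups. Gsdmc had no close neighbor. Its nearest were Teddm3 at 0.59 and Krt6a, a keratin of hyperproliferative epidermis, at 0.68, with 12.5, 563.1 and 104.6 FPKM for Krt6a. Gsdmc2 was nearest to Slc5a1, a sodium-glucose transporter, at 0.33 and to Il1f9, an epithelial cytokine of the interleukin-36 group, at 0.42. Gsdma3 was nearest to Rhof (0.28) and Kcnk1 (0.31), and Gsdma2 to Slc6a20a (0.53) and Klk7 (0.56).

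Protein-coding genes around the 3 gasdermin loci were looked at in the same comparisons. Psmd3, a proteasome subunit gene that starts 4846 bases after Gsdma, had 64.3 ± 8.95 FPKM in control and 93.8 ± 6.35 FPKM in IMQ + NS samples (SD, n = 4), and its log2 fold change of 0.55 (limma, adjusted p = 0.00211) had the direction of Gsdma but was not called. Near the Gsdmc genes, Fam49b at 16800 bases had no value, and neither had Lrrc3c and Gm12355 beside the Gsdma genes. Asap1, 174560 bases away from the Gsdmc genes, had log2 fold changes of -0.14 in the lesion and -0.03 after BZLF. Myc lies 1785594 bases away on their other side. It had 0.55 (adjusted p = 0.0141 from limma) in the lesion and -0.14 after BZLF, and neither gene was called. Of the 4 neighbors of Gsdmd, Mafa was called lower in IMQ + NS lesions (-1.65, adjusted p = 2.4e-04 from limma) and in BZLF lesions (-1.24, adjusted p = 0.00131) than in normal skin, the direction of Gsdmd. Naprt was also lower, at -0.33 (adjusted p = 0.0126 from limma) and -0.68 (adjusted p = 6.0e-04), under the fold limit. Mroh6, which lies 16729 bases from Gsdmd, was called higher in IMQ + NS lesions (1.05, adjusted p = 0.0052 from limma), and Zc3h3 was not called (0.09). These neighbors were chosen after the members' values were seen.

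The remaining genes of the gasdermin pathway were counted in a list of 57, of which 54 were tested. In IMQ + NS against control samples 7 of the 54 were called higher and 0 lower by limma, beside 11.4% of all tested genes called higher and 11.0% lower. After BZLF 6 were called lower and 0 higher, beside 2.2% and 0.321% of all tested genes called. At an unadjusted p below 0.05 in limma, 12 were higher and 13 lower in the lesion, and 16 were lower and 0 higher after BZLF. All genes were not counted at that limit, so these counts have no share beside them. At an adjusted p below 0.05 in limma and any fold, 8 were lower and 0 higher after BZLF. Of all 15288 genes tested, 791 were lower and 195 higher at that limit. In IMQ + BZLF against control samples 3 were higher and 3 were lower, beside 9.65% and 10.1% of all tested genes. Naip1, counted as higher in both comparisons with control samples, passed the filter on low values only through the IMQ groups. The median log2 fold changes were -0.02, -0.15 and -0.28, against 0.05, -0.02 and -0.02 for all genes tested.

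**Figure D4:**
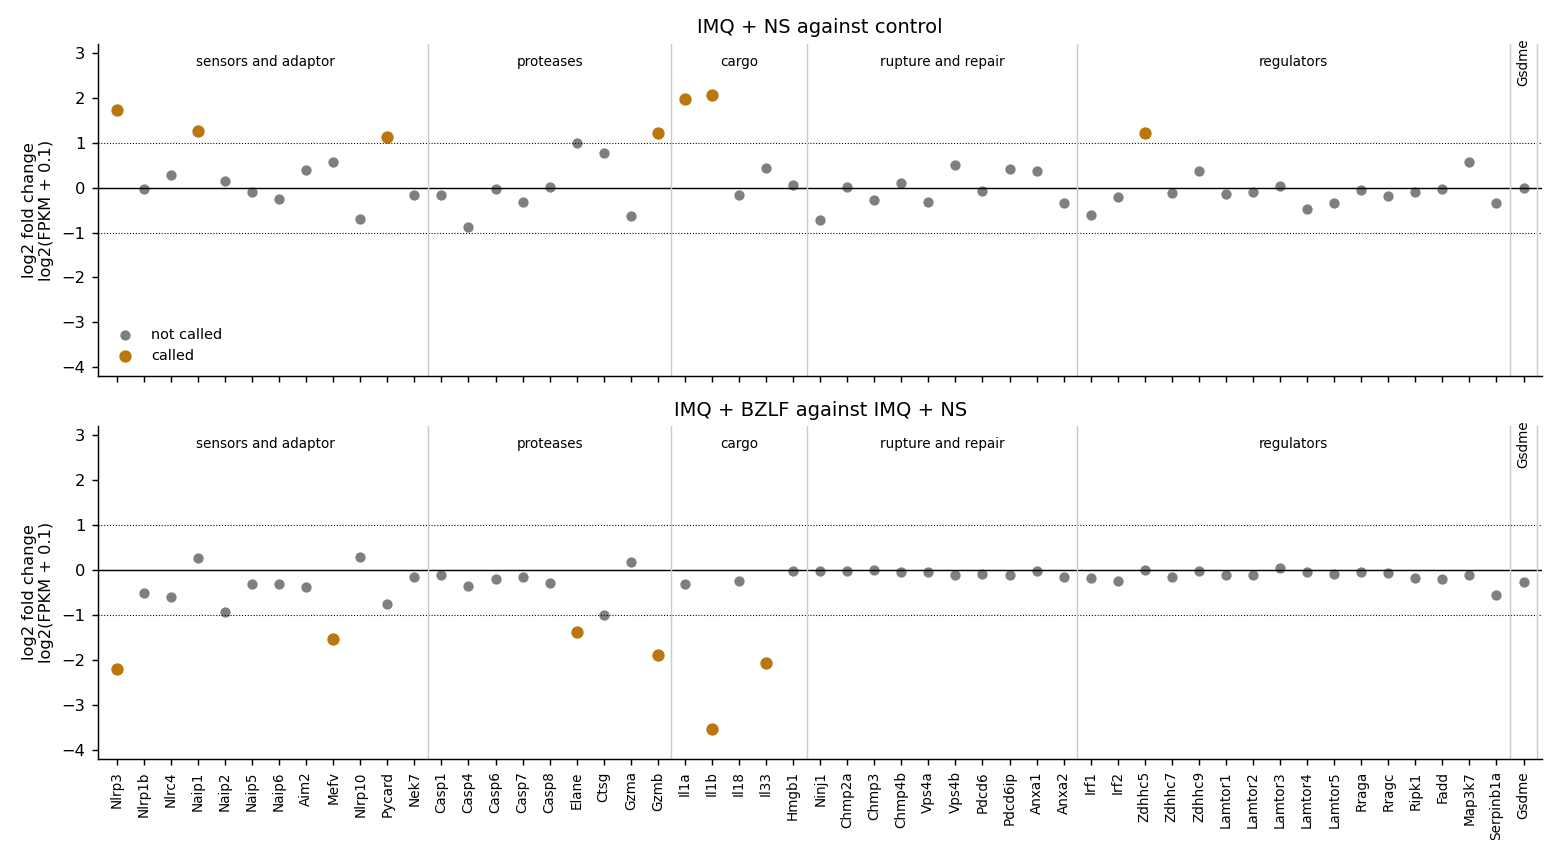
Log2 fold change on log2(FPKM + 0.1) (vertical axes) of the tested pathway genes (horizontal axis, in role groups, with 1 uncalled protease gene left out) for lesions against normal skin (top) and for BZLF against saline on lesions (bottom), with called genes in orange and dotted lines at the fold limit of 1. The 7 calls of the top panel are all higher, the 6 of the bottom panel are all lower, and no rupture, repair or regulator gene is called in the bottom panel.

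Among the 14 sensor and adaptor genes, 12 were tested. Pycard, the ASC adaptor that joins sensors to Casp1, had 15.7 ± 1.11 FPKM in normal skin, 34.3 ± 4.71 in IMQ + NS lesions and 20.4 ± 2.71 after BZLF (SD, n = 4). It was called higher in the lesion (log2 fold change 1.12, adjusted p = 7.3e-05 from limma) and was 0.75 lower after BZLF, under the fold limit (adjusted p = 0.00904). Nlrp3, the sensor of cell damage, was higher by 1.73 in the lesion, and fell by 2.20 after BZLF (adjusted p = 0.00457 and 0.0116 from limma), at a mean of 0.835 FPKM or less. Naip1, a receptor of bacterial secretion proteins, was the third gene higher in the lesion (1.27), and Mefv, which encodes pyrin, was the other one lower after BZLF (-1.53). Both stayed at low levels, with group means of at most 0.252 FPKM for Naip1 and 1.12 FPKM for Mefv. Naip1 averaged 0.0154 FPKM in control samples and was tested only through its levels in the IMQ groups, so its rise came with the filter. Naip1, Mefv and the proteases Gzmb and Elane, which follow, are named because they were called, after their values were seen.

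Of the 10 proteases that can cut gasdermins, most did not pass the call. Casp1 had 21.8 ± 2.51, 19.6 ± 3.05 and 18.1 ± 2.69 FPKM (SD, n = 4) in normal skin, IMQ + NS lesions and BZLF lesions, with a 95% interval of its log2 fold change of -0.45 to 0.13 in the lesion. Casp8, which can cut Gsdmc and Gsdmd, had 9.24 to 10.9, 8.84 to 11.3 and 7.44 to 9.16 FPKM in the 3 groups. Casp4, the mouse receptor of intracellular lipopolysaccharide, had 11.1, 5.99 and 4.79 FPKM in the 3 groups. It was lower in IMQ + NS than in control samples, under the fold limit (-0.87, adjusted p = 0.00484 from limma). In IMQ + BZLF against control samples it was called lower (-1.22, adjusted p = 0.00415 from limma), and against IMQ + NS samples it was not called (-0.35, adjusted p = 0.411). Gzmb, a granzyme of cytotoxic lymphocytes, rose by 1.21 in the lesion and fell by 1.89 after BZLF, and Elane, the neutrophil elastase, fell by 1.38 after BZLF, each below 1 FPKM in every group mean. The 8 T and NK cell genes with a value summed to 15.7 to 23.9, 10.1 to 19.1 and 5.74 to 12.6 FPKM in the 3 groups.

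The 5 cargo genes encode proteins released through gasdermin pores or from dying cells. Il1b had 5.67 ± 0.569 FPKM in normal skin, 28.5 ± 19.2 in IMQ + NS lesions and 2.07 ± 0.666 after BZLF (SD, n = 4), and was called in all 3 comparisons. Il1a, the keratinocyte form of the cytokine, rose by 1.97 in the lesion (adjusted p = 1.4e-04 from limma) and had 4.86 ± 0.935 FPKM there against 3.88 ± 0.284 after BZLF (SD, n = 4), a log2 fold change of -0.30 that was not called. Il33, an epithelial alarmin, was not called in the lesion (0.43, adjusted p = 0.272 from limma) and fell by 2.08 after BZLF (adjusted p = 0.0145). Il18 had 10.6, 9.23 and 8.17 FPKM, with 95% intervals of -0.76 to 0.42 in the lesion and -0.96 to 0.46 after BZLF.

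Genes of membrane rupture and repair, and regulators of gasdermins, held 1 called gene among 26 in each comparison with normal skin, where 22.4% (IMQ + NS) and 19.7% (IMQ + BZLF) of all tested genes were called. Ninj1, which breaks the membrane after pore formation, had 90.6 ± 18.3 FPKM in normal skin, 54.6 ± 7.38 in IMQ + NS lesions and 54.3 ± 7.65 after BZLF (SD, n = 4). Its log2 fold change of -0.72 in the lesion was under the fold limit (adjusted p = 0.00428 from limma). Zdhhc5, a palmitoyltransferase, was the call, with 22.8 ± 5.25, 52.4 ± 2.97 and 52.7 ± 5.69 FPKM (SD, n = 4) and log2 fold changes of 1.22 in the lesion and 0.00 after BZLF. Irf2, a factor that drives Gsdmd transcription, had 2.84, 2.45 and 2.07 FPKM and was not called in any comparison. Of the gasdermins outside the 8, Gsdme had 0.271, 0.267 and 0.211 FPKM with no call, and Pjvk averaged 0.0515 FPKM or less in each group.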

How the data were processed

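The authors deposited 1 FPKM value per gene for each of 12 samples, 4 per group. The paper describes Bowtie2 alignment to transcripts and quantification with eXpress, whereas the submitters' processing notes name mm10, fastp, HISAT2, HTSeq and R 3.2.0. How reads shared by paralogs were divided is therefore not known. Of 19287 low values, 31.4% lay within 0.05 of a whole multiple of their gene's smallest value, so counts were not rebuilt. The paper gives a similar amount of clean data for each sample, but the number of reads behind each value is unknown. The study tested counts with DESeq2, which were not used here.

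With R 4.3.3 and limma 3.58.1, log2(FPKM + 0.1) of 15288 genes with a mean of at least 0.1 FPKM was fitted for each pair of groups, with a trend on expression and Benjamini-Hochberg adjustment, and checked on simulated data. The limits of a call are given above. Named were all members, fixed pathway genes, up to 4 more called pathway genes per role with a mean of at least 1 FPKM, and the 2 nearest profiles per member. Members and lists were chosen with earlier results of these data known. Coding sequences came from GENCODE M21 and were aligned with Biopython 1.88. Cell type lists covered suprabasal and hyperproliferative keratinocytes, inner root sheath, hair shaft, sebaceous gland, neutrophils, macrophages, T and NK cells and intestinal epithelium. Replicates are as numbered in the labels. For 1 pathway gene the values are not reported here, and it is included in the counts.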

Additional observations from a re-analysis of the deposited data

Results flagged for a closer look

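Among 81 groups of 4 samples (27 genes in 3 groups), 6 held a sample far from the other 3, and chance alone would flag about 1 group in 20. That rate does not hold where the other 3 samples are at 0, since any value above 0 is then flagged. This was the case for Gsdmc2 in the control group and Pjvk in the IMQ + BZLF group. In the control group replicate 3 was the high sample for Gsdma2 (0.117 FPKM) and for Gsdmc2 (0.0158 FPKM), both at levels near 0. In the IMQ + BZLF group replicate 1 was the low sample for Casp1 (14.1 FPKM) and Casp4 (2.76 FPKM), and it was also the lowest for Gsdmc, Gsdmc2 and Gsdmd. That sample had the highest sums of its group for inner root sheath (14267 FPKM) and hair shaft genes (12680 FPKM). Its sums were the lowest for the other lists except hyperproliferative keratinocytes, with 763.9 FPKM for macrophage and 5.74 FPKM for T and NK cell genes. The part of this make-up in the low values was not tested. In the same group Il33 was high in replicate 4 (5.64 FPKM), and Pjvk was listed at 0.0834 FPKM in replicate 3 and at 0 in the others.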

How the results depend on the processing

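The calls of Gsdma and Gsdmc against control samples held under every alternative run. With 1 added before the logarithm, or with a mean of at least 1 FPKM required, 2 members in place of 4 were called higher in the lesion and 1 in place of 2 was lower after BZLF. In those settings 4 pathway genes were higher in the lesion and 2 lower after BZLF, and with no filter 3 were lower after BZLF. With no fold limit 1 member was lower in each comparison with control samples, 12 pathway genes were higher and 11 lower in IMQ + NS against control samples, and 9 were higher and 22 lower in IMQ + BZLF against control samples. Of all 15288 genes tested, 4427 were then higher and 4142 lower in IMQ + NS against control samples. In IMQ + BZLF against control samples 3640 were higher and 4458 lower. With quantile normalization 1 pathway gene was lower in IMQ + NS and 1 member lower in IMQ + BZLF against control samples. Leaving out 1 sample gave 1 to 2 members lower after BZLF and 0 to 1 lower in IMQ + BZLF against control samples, and for pathway genes 6 to 9 higher and 0 to 1 lower in the lesion, 3 to 5 lower after BZLF and 2 to 5 lower in IMQ + BZLF against control samples. Gsdma3 in IMQ + BZLF against control samples changed sign without control replicate 1 (-0.25) and without IMQ + BZLF replicate 2 (-0.04), with a range of -0.25 to 0.24 when 1 sample was left out. The cause was not tested, beyond fewer genes or samples. Same-numbered samples correlated at -0.15 to 0.26, and 4, 6 and 4 of 8 samples per comparison fitted their own number best. These values do not settle whether the numbers mark pairs. The main fits did not take them as pairs. With the replicate number as a block, 4 members were higher in the lesion, 2 lower after BZLF and 3 higher in IMQ + BZLF against control samples, as without it, and 5 pathway genes in place of 6 were lower after BZLF. Levels below about 0.1 FPKM are too low to rank.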
